A study of Mus musculus with 9 samples.

Results

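The constitutive proteasome subunits were read as the 37 genes, of 18193 measured, whose symbols start with Psma, Psmb, Psmc or Psmd followed by a digit, without the 3 inducible subunits Psmb8, Psmb9 and Psmb10. These genes had 76 of the 45101 probe sets on the array, a probe set being a group of short probes that reports on a single transcript, and the probe set with the highest mean over the 9 arrays stood for its gene. Of the 37 genes, 31 encode constitutive subunits, 14 in the 20S core and 17 in the 19S regulatory particle. The other 6 were Psma8 and Psmb11, which encode tissue-specific subunits, Psmd5, Psmd9 and Psmd10, which encode assembly chaperones, and Psmc3ip, whose product takes part in meiotic recombination and is no subunit. Expression was measured in 3 cell types of the mouse with 3 arrays each. Very small embryonic-like stem cells (VSEL, sorted as Sca-1+ Lin- CD45-) and haematopoietic stem cells (HSC, sorted as Sca-1+ Lin- CD45+) came from the bone marrow of C57BL/6 mice 4 weeks of age. The third cell type was the established line ESC-D3 of embryonic stem cells (ESC), of strain 129S2/SvPas, kept on 0.1% gelatin in medium with 10 ng/ml of leukaemia inhibitory factor. Each library held the amplified cDNA of 20 cells, no treatment or genetic change was named for any group, and ESC differed from the other groups in strain and culture as well as in cell type, which cannot be told apart here.

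The 26S proteasome degrades proteins that carry ubiquitin chains. Its 20S core is a barrel of outer alpha rings, which gate entry, and inner beta rings, in which Psmb6, Psmb7 and Psmb5 carry the caspase-like, trypsin-like and chymotrypsin-like active sites. The 19S particle that caps the barrel has a base, with a ring of ATPases (Psmc genes) that unfold substrates and open the gate, and a lid (most Psmd genes) that removes ubiquitin. Subunits are made in matched amounts in most tissues, and Nfe2l1 (Nrf1), a transcription factor that is itself degraded by the proteasome, is known to raise their transcription when proteasome activity falls. In cells of the immune system the active subunits are partly replaced by the inducible Psmb8, Psmb9 and Psmb10. ESC are known for high proteasome activity.

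Promoter windows of 250 bases before the transcription start were held in the RefSeq table (build GRCm38.p6) for 30 of the 37 genes. They were searched on both strands for TGACNNNGC, the core of the antioxidant response element that Nfe2l1 can bind, for CCGGAAG, a motif of ETS factors, and for CCAAT. The first motif was present in 5 of the 30 genes (16.7%), Psmb5, Psmb6, Psmc6, Psmd12 and Psmd9, and in 10.2% of all 32851 windows. CCGGAAG was present in 10 of the 30 (33.3%) against 6.91% of all windows, and CCAAT in 13 (43.3%) against 33.8%. A match is a description of the letters in the window, not of binding. The windows of Psmb6 (chr11:70525107-70525356, plus strand), Psmb5 (chr14:54617996-54618245, minus strand), Psmc6 (chr14:45329574-45329823, plus strand) and Psmd12 (chr11:107479278-107479527, plus strand) are shown because each holds TGACNNNGC and each gene was called in at least 1 comparison. Capitals mark TGACNNNGC and CCGGAAG on either strand. The outer base of the TGACNNNGC match lay 9 bases before the start in Psmb6, 47 in Psmb5, 227 in Psmc6 and 247 in Psmd12.
Psmb6: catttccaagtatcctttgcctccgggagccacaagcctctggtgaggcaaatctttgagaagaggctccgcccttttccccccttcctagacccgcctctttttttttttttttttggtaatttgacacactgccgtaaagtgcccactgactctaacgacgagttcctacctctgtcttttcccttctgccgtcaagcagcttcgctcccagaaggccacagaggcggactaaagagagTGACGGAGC
Psmb5: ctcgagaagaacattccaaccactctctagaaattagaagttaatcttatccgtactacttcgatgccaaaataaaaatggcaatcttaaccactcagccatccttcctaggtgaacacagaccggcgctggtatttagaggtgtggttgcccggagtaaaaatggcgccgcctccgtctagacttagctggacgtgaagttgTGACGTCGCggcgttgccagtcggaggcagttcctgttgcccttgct
Psmc6: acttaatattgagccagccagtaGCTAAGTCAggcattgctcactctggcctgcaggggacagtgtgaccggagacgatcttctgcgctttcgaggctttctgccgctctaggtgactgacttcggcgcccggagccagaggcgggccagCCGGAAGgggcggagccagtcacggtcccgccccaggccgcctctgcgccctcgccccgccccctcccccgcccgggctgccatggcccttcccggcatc
Psmd12: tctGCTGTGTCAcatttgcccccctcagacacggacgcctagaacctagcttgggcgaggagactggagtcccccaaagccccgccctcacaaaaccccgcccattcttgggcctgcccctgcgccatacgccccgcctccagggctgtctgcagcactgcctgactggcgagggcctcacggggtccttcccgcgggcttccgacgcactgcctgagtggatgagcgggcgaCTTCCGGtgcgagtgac

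VSEL arrays 2 and 3 differed by far less than any other pair within a group (r = 0.989 over probe sets, against 0.831 to 0.957), so their mean was counted as 1 library, VSEL 2+3, and the tests rest on 8 libraries. The labels do not tell whether replicate libraries were made from different animals or cultures, so the p-values reflect the spread among these libraries alone, and that spread may be technical. The upper quartile of gene values was 7.63 for VSEL 1, 7.67 for VSEL 2+3 and 8.50 to 8.63 for the other libraries. The 3' minus 5' difference of the array's control probe sets, a sign of RNA and cDNA length, was 0.709 to 1.07 on VSEL arrays, 0.733 to 0.962 on HSC arrays and 0.340 to 0.446 on ESC arrays. All 8 embryonic stem cell markers lay above the array's upper quartile in ESC and VSEL and none in HSC, with list medians of 12.14 to 12.20 in ESC, 9.44 and 9.37 in VSEL and 3.67 to 3.88 in HSC. Of the 5 measured stem and progenitor markers at most 1 lay above the upper quartile in any HSC library, while all 6 pan-leukocyte and all 8 granulocyte markers did, as did 4 or 5 of 6 T and NK cell markers. In both VSEL libraries all 6 measured erythroid, all 8 granulocyte and 5 of 7 B lineage markers lay above it, and pan-leukocyte markers had medians of 5.12 in VSEL 1 and 9.66 in VSEL 2+3. The cell types thus differed in the markers of several lineages at once, and the part of these markers, of RNA quality and of the array scale in the differences below was not tested. In bulk libraries of 20 cells, fewer cells with a transcript and less of it per cell cannot be told apart.

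**Figure D1:**
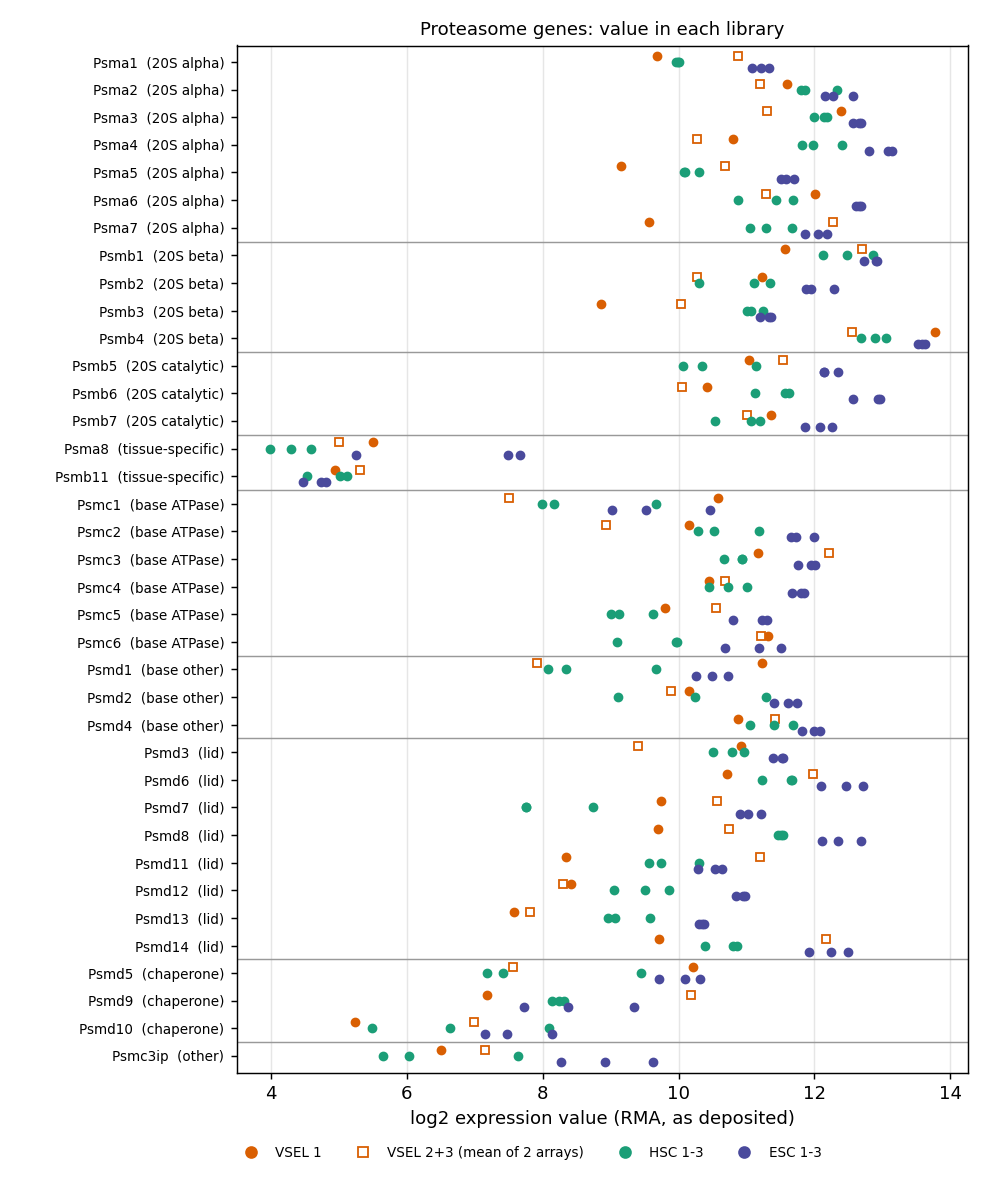
Log2 expression value (x axis) of each of the 37 genes (rows, grouped by role) in each library, with filled orange circles for VSEL 1, open squares for VSEL 2+3, green circles for HSC and blue circles for ESC. Blue points lie to the right for most rows, the VSEL points of a row are often far apart, and values are to be compared within a row only.

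HSC against ESC sets bone marrow cells that carry CD45 beside pluripotent cells. Subunit genes had lower means in HSC throughout the complex. The mean was lower for all 31 constitutive subunits, with a median log2 difference of -1.13 (2.19-fold) over the 37 genes, where the median of all genes was -0.04 and that of genes above the median mean was -0.12. In the limma fit 16 of 37 were called lower and 0 higher (adjusted p of 0.05), where 9.93% of all genes were called lower, 15.3% of genes above the median mean (bright genes) were, and 6.99% of all genes and 10.7% of bright ones were called higher. All HSC values lay below all ESC values for 29 of the 37, against 21.5% of all genes and 29.4% of genes above the median mean. At an unadjusted p under 0.05 the counts in limma were 23 lower and 0 higher. By role, the calls fell on 4 of 7 alpha subunits, 0 of 4 beta subunits without an active site, 3 of 3 active subunits, 4 of 6 ATPases, 0 of 3 other base subunits and 3 of 8 lid subunits, together with Psma8 and Psmc3ip. The 17 constitutive subunits that were not called had differences from -1.80 to -0.19, so they pointed the same way. The number of calls depended on single libraries, with 9 lower without HSC 2, 7 without ESC 1, 8 without ESC 2 and 9 without ESC 3. The median difference ranged from -1.20 to -0.82 over the 21 alternatives. Some of these, such as leaving out a VSEL library or keeping the 9 arrays separate, do not alter the HSC and ESC means. They left the median at -1.13 by construction and are no check of it. More genes were called lower when either VSEL library was left out. The fit shares 1 spread over the 3 groups, so the VSEL libraries enter the standard errors of this comparison too. Calls of 7 genes (Psmb5, Psmb6, Psmc4, Psmc5, Psmd12, Psmd13 and Psmd7) held whichever library was left out.

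VSEL against ESC sets the marrow cells without CD45 beside the pluripotent cells, and it uses the same ESC libraries, so the direction of its values is not independent of the comparison above. Subunit genes again had lower means in the marrow cells, with log2 differences from -2.65 to 0.45. A median log2 difference of -1.08 (2.11-fold) over the 37 genes compared with 0.11 for all genes and -0.50 for genes above the median mean. Of the 37, 10 were called lower and 0 higher, where 10.5% of all genes and 19% of genes above the median mean were called lower and 6.38% of all genes and 6.82% of bright ones were called higher. At an unadjusted p under 0.05 the counts in limma were 22 lower and 0 higher. The share of calls was thus above that of all genes and nearer to that of bright genes. All VSEL values lay below those of ESC for 25 genes, against 22.6% of all genes and 38.1% of bright ones, and above them for 1 gene, Psmb11, against 33% of all genes. The calls comprised 3 of 7 alpha subunits, 1 of 4 beta subunits without an active site, 1 of 3 active subunits, 2 of 6 ATPases, 0 of 3 other base subunits and 3 of 8 lid subunits. Centring the arrays on genes above the median mean moved the members' median to -0.19 and that of all genes to 1.0, with 7 members called lower, 2 higher (Psmb11 and Psmc6) and 26 of 37 differences below 0, and cyclic loess gave a median of -0.41 with 5 called lower. The count was 6 without ESC 1 and 18 with the 9 arrays kept separate.

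VSEL against HSC compares the 2 marrow populations, which shared tissue, strain and age. Subunit genes differed in both directions, and the members as a whole lay where other bright genes lay. The median log2 difference was -0.16 over the 37 genes, 0.22 over all genes and -0.19 over genes above the median mean. Psmc6 and Psmd7 were called higher in VSEL and Psma4, Psmb3, Psmb6, Psmd8, Psmd12 and Psmd13 lower, that is 2 and 6 of 37, where 8.01% and 9.18% of all genes and 8.75% and 15.2% of bright ones were called higher and lower. All VSEL values lay above those of HSC for 5 genes, against 37.8% of all genes and 21.8% of bright ones. They lay below them for 8 (21.6%), against 17.3% of all genes and 28.4% of bright ones. The 23 constitutive subunits that were not called had differences from -1.13 to 0.92. Leaving out HSC 1, HSC 2 or HSC 3 left 3 genes called lower in each case, the number called higher was 0 without HSC 1, 1 without VSEL 2+3, 1 without ESC 1 and 4 without VSEL 1, and only the calls of Psma4 and Psmd13 held whichever library was left out. The sign of the median was not stable, since it was 0.74 with arrays centred on genes above the median mean, 0.22 under cyclic loess, 0.09 with centring on ribosomal protein genes and 0.04 without VSEL 1. The median of all genes in these settings was 1.12, 0.06, 0.47 and 0.22. Both centrings move all genes of an array alike, so the members' median relative to that of all genes stayed at -0.38 by construction. It lay above that of all genes by 0.15 under cyclic loess and below it without VSEL 1.

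**Figure D2:**
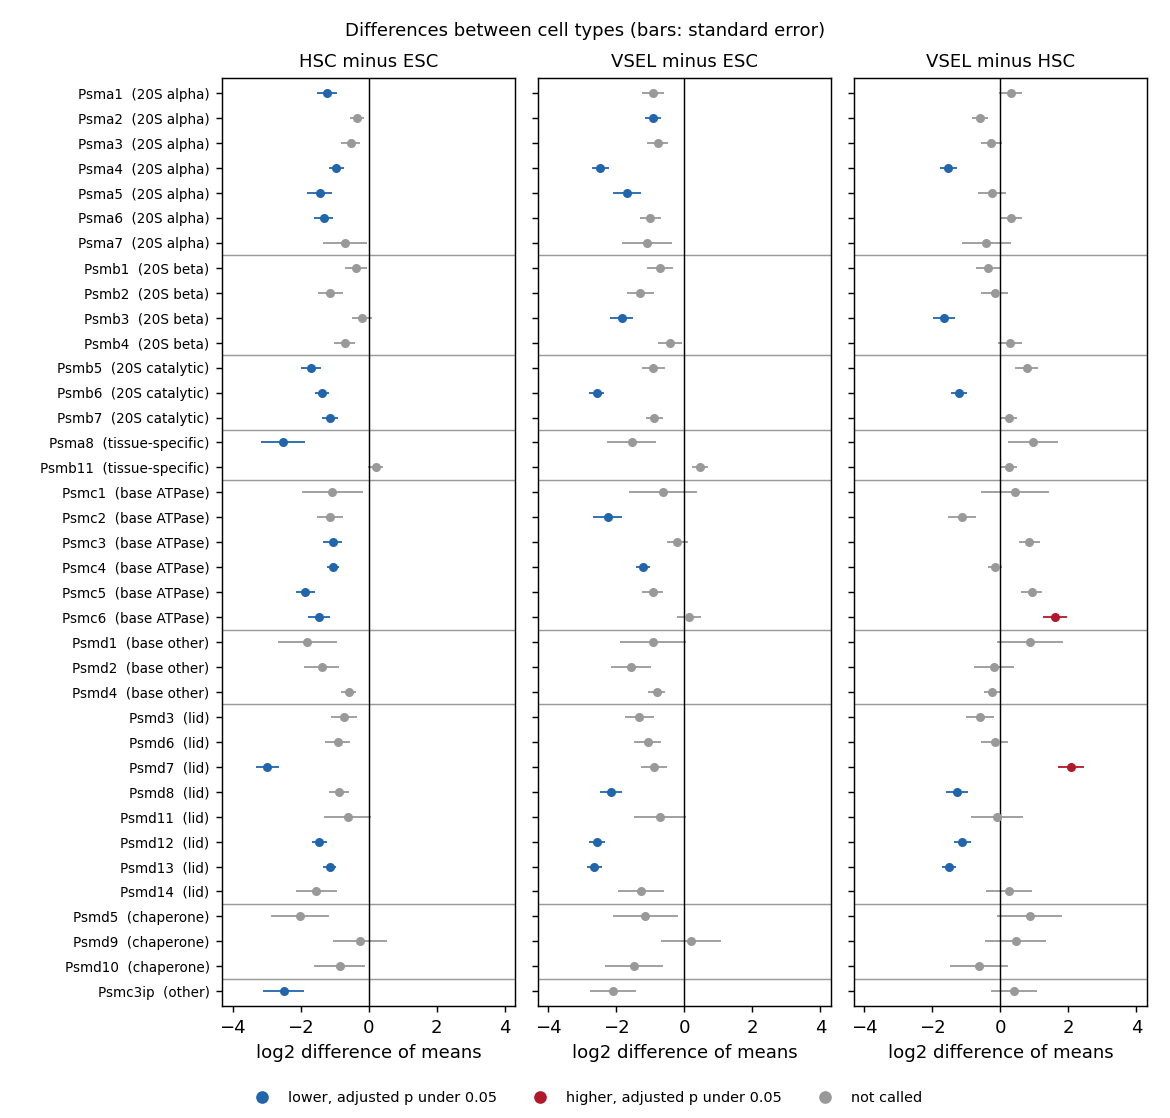
Log2 difference of group means (points) with its standard error (bars) for each gene in the 3 comparisons, in blue where lower and in red where higher at an adjusted p of 0.05, and in grey where not called. In HSC minus ESC 36 of 37 points lie below 0 and in VSEL minus ESC 34 do, while VSEL minus HSC has 20 below and 17 above.

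**Figure D3:**
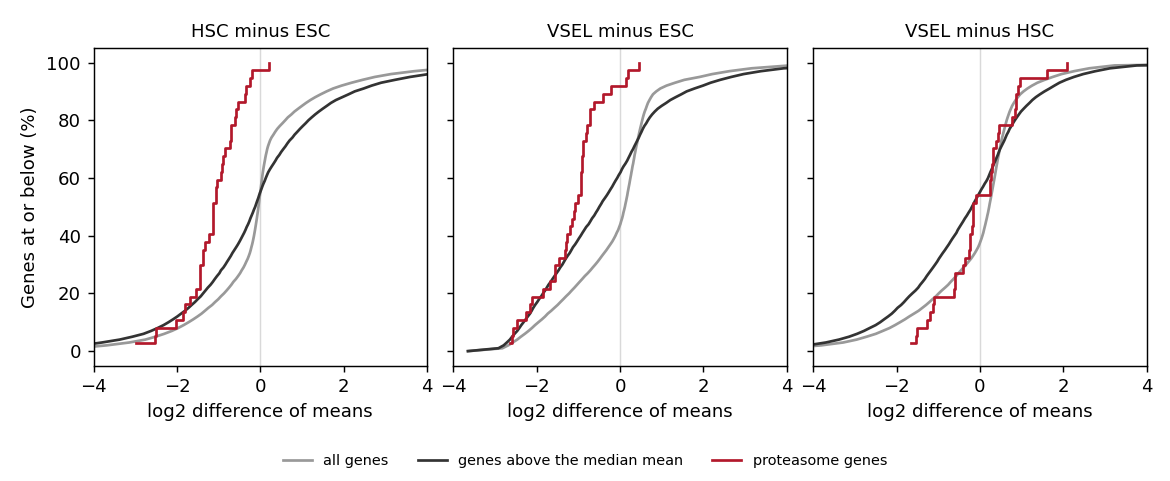
Share of genes (y axis, percent) at or below each log2 difference (x axis) for the 37 proteasome genes (red), all 18193 genes (light grey) and genes above the median mean (dark grey). The red curve lies to the left of both others at the members' median in HSC minus ESC, where 16.4% of all genes and 24.3% of bright genes lie below that median, against 22.3% and 37.1% in VSEL minus ESC and 33.1% and 50.9% in VSEL minus HSC.

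Among the alpha subunits, which form the outer rings and the gate of the core, Psma4 showed the widest separation. Its values were 10.81 and 10.27 in VSEL 1 and VSEL 2+3, 12.40, 11.98 and 11.81 in HSC and 12.81, 13.14 and 13.09 in ESC. The 3 cell types did not overlap, with VSEL lowest and ESC highest. The log2 difference was -2.48 in VSEL against ESC (SE 0.26, 5.56-fold, adjusted p = 0.00267), -1.53 in VSEL against HSC (SE 0.26, adjusted p = 0.0127) and -0.95 in HSC against ESC (SE 0.23, adjusted p = 0.0354). The last of these calls was lost without ESC 1, ESC 2, ESC 3, HSC 2 or HSC 3 (adjusted p up to 0.114 over the fits that left out 1 library). Psma5 lay at 9.15 and 10.68 in VSEL, 10.08, 10.09 and 10.30 in HSC and 11.70, 11.58 and 11.51 in ESC. Both marrow groups lay below every ESC value, and the VSEL values fell on either side of HSC. Psma5 was called lower than ESC in VSEL (-1.68, SE 0.42, adjusted p = 0.041) and in HSC (-1.44, SE 0.37, adjusted p = 0.0451), and both calls were lost when any 1 of the HSC or ESC libraries was left out (adjusted p up to 0.105 and 0.130). The difference in VSEL against ESC was -0.92 without VSEL 1 and -2.45 without VSEL 2+3. The only probe set of Psma5 that is not marked as able to match several transcripts was dim, with a mean of 4.37, where the lower quartile of all genes, taken here as the array background, was 4.49 to 4.80 on the 9 arrays. It gave 0.55 in HSC against ESC (SE 0.50, adjusted p = 0.622 in a fit over all probe sets), with HSC 1 at 5.97 and the other HSC libraries at 4.03 and 4.3.

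Psma6 was measured at 12.02 and 11.28 in VSEL, 11.69, 11.43 and 10.88 in HSC and 12.66, 12.61 and 12.68 in ESC. HSC and VSEL overlapped and both lay below ESC. It was called in HSC against ESC alone (-1.32, SE 0.27, 2.50-fold, adjusted p = 0.0206), a call lost without HSC 2, ESC 1, ESC 2 or ESC 3 (adjusted p up to 0.0667), and its difference in VSEL against ESC was -1.0 (adjusted p = 0.0715). Psma1 had nearly equal HSC values of 10.00, 9.99 and 9.96, ESC values of 11.34, 11.09 and 11.22 and VSEL values of 9.69 and 10.88. HSC lay below ESC without overlap, and VSEL 1 and VSEL 2+3 lay on either side of HSC. Its difference in HSC against ESC was -1.23 (SE 0.30, 2.35-fold, adjusted p = 0.0363), lost without any 1 HSC or ESC library (adjusted p up to 0.112), and 0.36 when all its probe sets were averaged. The 3 probe sets that enter this mean beside the one used had means of 5.0, 3.10 and 3.00, near or below background. On the first of them HSC 1 and HSC 2 lay at 8.25 and 6.82 and HSC 3 at 4.28. Of the remaining alpha subunits, Psma2 was called in VSEL against ESC (-0.93, SE 0.24, adjusted p = 0.046), a call that ended when any library other than HSC 3 was left out (adjusted p up to 0.145). Psma3 and Psma7 were not called in any comparison, and their differences ranged from -1.11 to -0.26.

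On the probe sets used, the 4 beta subunits without an active site, Psmb1, Psmb2, Psmb3 and Psmb4, differed least between HSC and ESC. Their median was -0.53, with no call and 1 gene at an unadjusted p under 0.05 in limma. Another probe set of Psmb1, with a mean of 6.48, was called lower in HSC than in ESC (-0.72, adjusted p = 0.0205 in a fit over all probe sets). A further one, with a mean of 6.87, gave -0.52 without a call. Psmb3, which sits beside the active subunit Psmb7 in the ring, was set apart by VSEL. It lay at 8.86 and 10.04 in VSEL, 11.06, 11.01 and 11.24 in HSC and 11.34, 11.36 and 11.19 in ESC. HSC and ESC overlapped on the probe set used, and both VSEL values lay below all others. Its log2 difference was -1.85 in VSEL against ESC (SE 0.33, 3.60-fold, adjusted p = 0.0161) and -1.65 in VSEL against HSC (SE 0.33, 3.15-fold, adjusted p = 0.0227). The first call was lost without ESC 1 or ESC 2 (adjusted p up to 0.0524) and the second without any 1 HSC library (adjusted p up to 0.0633). The second difference was -1.06 without VSEL 1. The other probe set of Psmb3 lay at 8.63 and 8.24 in VSEL, 10.09, 9.74 and 10.06 in HSC and 10.99, 10.73 and 11.16 in ESC. There HSC also lay below ESC without overlap (-0.997, adjusted p = 0.017 in a fit over all probe sets). In that fit it gave -2.52 in VSEL against ESC (adjusted p = 0.00162) and -1.53 in VSEL against HSC (adjusted p = 0.0073).

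The active subunits Psmb5, Psmb6 and Psmb7 were all lower in HSC than in ESC, each without overlap. Psmb6, the caspase-like subunit, was measured at 10.41 and 10.06 in VSEL, 11.57, 11.63 and 11.13 in HSC and 12.96, 12.93 and 12.56 in ESC. Its 3 groups formed separate steps, from VSEL up to ESC. The difference was -2.58 in VSEL against ESC (SE 0.23, 5.99-fold, adjusted p = 0.00176), -1.38 in HSC against ESC (SE 0.21, 2.59-fold, adjusted p = 0.00591) and -1.21 in VSEL against HSC (SE 0.23, 2.31-fold, adjusted p = 0.0198). The last call ended without HSC 1, HSC 2 or VSEL 2+3 (adjusted p up to 0.0644). Psmb5, the chymotrypsin-like subunit and the main target of proteasome inhibitors used in the clinic, lay at 11.04 and 11.54 in VSEL, 10.06, 10.34 and 11.13 in HSC and 12.14, 12.35 and 12.14 in ESC. Here HSC held the lowest values, VSEL 1 lay within the range of HSC, and ESC lay above both. HSC differed from ESC by -1.70 (SE 0.30, 3.24-fold, adjusted p = 0.0114), while VSEL differed from ESC by -0.92 (95% interval -1.74 to -0.11, adjusted p = 0.111) and from HSC by 0.77 (95% interval -0.04 to 1.59). Psmb7, the trypsin-like subunit, was measured at 11.36 and 11.01 in VSEL, 11.21, 11.07 and 10.54 in HSC and 12.26, 12.09 and 11.86 in ESC. VSEL and HSC overlapped below ESC. Only HSC against ESC was called (-1.13, SE 0.23, 2.19-fold, adjusted p = 0.0179), and it was lost without ESC 1 or ESC 2 (adjusted p up to 0.0649).

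In the base of the 19S particle, 4 of the 6 ATPase genes were called lower in HSC than in ESC, and all VSEL values lay above those of HSC for 3 of 6, where they did for 37.8% of all genes and 21.8% of bright ones. Psmc5 was measured at 9.81 and 10.55 in VSEL, 9.12, 9.63 and 9.0 in HSC and 11.23, 11.30 and 10.81 in ESC. The groups did not overlap, with HSC lowest and VSEL between the others. HSC differed from ESC by -1.86 (SE 0.28, 3.64-fold, adjusted p = 0.00567), and VSEL by -0.94 from ESC (adjusted p = 0.0882) and 0.92 from HSC (adjusted p = 0.0891). Psmc6 lay at 11.33 and 11.22 in VSEL, 9.97, 9.96 and 9.10 in HSC and 11.18, 11.51 and 10.69 in ESC. On the probe set used, VSEL lay within the range of ESC, and both were above HSC. Psmc6 was higher in VSEL than in HSC by 1.60 (SE 0.35, 3.03-fold, adjusted p = 0.0297) and HSC differed from ESC by -1.45 (SE 0.32, adjusted p = 0.0246), while VSEL minus ESC was 0.15 with a 95% interval of -0.70 to 1.0. The first call ended without VSEL 1, VSEL 2+3, HSC 1 or ESC 1 (adjusted p up to 0.0844) and the second without ESC 1 or ESC 2 (adjusted p up to 0.0795). The only probe set of Psmc6 not marked as able to match several transcripts lay below background in all VSEL and HSC libraries (3.52 and 3.72 in VSEL) and at 4.89, 5.16 and 4.98 in ESC, so its VSEL minus ESC value of -1.39 rests on VSEL values below background. The remaining probe set of Psmc6 lay at 4.51 and 5.13 in VSEL, 6.36, 2.63 and 5.43 in HSC and 7.41, 7.61 and 7.00 in ESC. It gave 0.012 in VSEL against HSC and -2.52 in VSEL against ESC (adjusted p = 0.148 in a fit over all probe sets). Neither of these probe sets thus placed VSEL within the ESC range or clearly above HSC.

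Psmc4 was measured at 10.44 and 10.69 in VSEL, 10.74, 11.00 and 10.44 in HSC and 11.85, 11.67 and 11.81 in ESC. The marrow groups overlapped each other and lay below ESC. It was called in VSEL against ESC (-1.21, SE 0.20, 2.31-fold, adjusted p = 0.0123) and in HSC against ESC (-1.05, SE 0.18, 2.07-fold, adjusted p = 0.00985). Psmc2 lay at 10.15 and 8.93 in VSEL, 10.29, 10.53 and 11.19 in HSC and 11.73, 12.00 and 11.66 in ESC. VSEL was lowest and ESC highest, without overlap. On the probe set used, Psmc2 was called in VSEL against ESC only (-2.26, SE 0.42, 4.78-fold, adjusted p = 0.018), a call lost without ESC 1 or ESC 2 (adjusted p up to 0.0582). Another probe set of Psmc2, with a mean of 10.48, was called in each comparison in a fit over all probe sets. It gave -2.33 in VSEL against ESC (adjusted p = 0.00464), -1.23 in VSEL against HSC (adjusted p = 0.0312) and -1.10 in HSC against ESC (adjusted p = 0.0315). A further one, with a mean of 3.09, lay below background and was not called. Among the other ATPases, Psmc3 was called in HSC against ESC (-1.06, SE 0.28, adjusted p = 0.0467), which ended without any 1 HSC or ESC library (adjusted p up to 0.137), and Psmc1 was not called in any comparison. On the probe sets used, none of the 3 other base subunits was called by limma in any comparison: Psmd1 and Psmd2, the scaffolds that hold ubiquitin-binding proteins, and Psmd4, a ubiquitin receptor, of which 2 passed an unadjusted p under 0.05 against ESC in each marrow group. Their means were below ESC in both marrow groups, with differences from -1.80 to -0.59 in HSC and from -1.57 to -0.82 in VSEL. Another probe set of Psmd4, with a mean of 9.78, was called lower than ESC in a fit over all probe sets. It gave -1.55 in VSEL (adjusted p = 0.0105) and -0.94 in HSC (adjusted p = 0.0315). A further one, with a mean of 7.64, gave -0.46 in VSEL and 0.39 in HSC against ESC, without a call.

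On the probe sets used, the lid held both the largest difference and the clearest contrast between VSEL and HSC. Psmd7, which pairs with the deubiquitinating subunit Psmd14, was measured at 9.75 and 10.57 in VSEL, 7.75, 7.76 and 8.73 in HSC and 10.91, 11.22 and 11.03 in ESC. HSC lay far below the others, and VSEL lay below ESC without overlap. Psmd7 differed by -2.97 in HSC against ESC (SE 0.34, 7.85-fold, adjusted p = 0.0019) and by 2.08 in VSEL against HSC (SE 0.39, 4.22-fold, adjusted p = 0.0175). The VSEL against HSC call ended without HSC 1 or VSEL 2+3 (adjusted p up to 0.0556), and VSEL minus ESC was -0.89 (95% interval -1.82 to 0.04). Another probe set of Psmd7, with a mean of 6.43, gave -0.25 in HSC against ESC (adjusted p = 0.728 in a fit over all probe sets). It gave 0.23 in VSEL against HSC (adjusted p = 0.653 in that fit). A further one, with a mean of 5.07, gave -0.12 and 0.57 in these comparisons, without a call. Psmd13 lay at 7.58 and 7.81 in VSEL, 8.97, 9.58 and 9.07 in HSC and 10.30, 10.35 and 10.38 in ESC. The groups were fully separate, in the order VSEL, HSC, ESC. Its differences were -2.65 in VSEL against ESC (SE 0.21, 6.26-fold, adjusted p = 0.00131), -1.51 in VSEL against HSC (SE 0.21, 2.84-fold, adjusted p = 0.00699) and -1.14 in HSC against ESC (SE 0.19, 2.20-fold, adjusted p = 0.00902).

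Another probe set of Psmd13 did not give the same order, and it is the one case in which probe sets of a member were called in opposite directions. It was measured at 7.10 and 7.30 in VSEL, 6.36, 6.72 and 6.67 in HSC and 6.98, 6.96 and 6.94 in ESC, so VSEL lay highest. It gave 0.62 in VSEL against HSC (adjusted p = 0.0400 in a fit over all probe sets) and 0.24 in VSEL against ESC (adjusted p = 0.294). A further probe set, with VSEL values of 7.22 and 7.25, HSC values of 8.36, 9.11 and 8.34 and ESC values of 9.47, 9.58 and 9.55, followed the order of the probe set used. Over all members, 17 further probe sets lay above the median mean, and their differences had the sign of the probe set used for 12 when VSEL were set against HSC, and for 15 in each of the comparisons with ESC.

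Psmd12, a scaffold subunit of the lid, was measured at 8.41 and 8.30 in VSEL, 9.05, 9.86 and 9.51 in HSC and 10.98, 10.95 and 10.85 in ESC. It too showed separate groups, with VSEL lowest and nearly equal. The difference was -2.57 in VSEL against ESC (SE 0.24, 5.92-fold, adjusted p = 0.002), -1.45 in HSC against ESC (SE 0.22, 2.73-fold, adjusted p = 0.00551) and -1.12 in VSEL against HSC (SE 0.24, 2.17-fold, adjusted p = 0.0284), the last of which was lost when VSEL 1, VSEL 2+3, HSC 3 or any 1 ESC library was left out (adjusted p up to 0.0786). Psmd8 lay at 9.70 and 10.75 in VSEL, 11.50, 11.46 and 11.54 in HSC and 12.11, 12.36 and 12.69 in ESC. Again VSEL was lowest and ESC highest, without overlap. It was called in VSEL against ESC (-2.16, SE 0.33, 4.47-fold, adjusted p = 0.00928) and in VSEL against HSC (-1.28, SE 0.33, 2.42-fold, adjusted p = 0.0453), where the call ended without VSEL 1 and without any 1 HSC or ESC library (adjusted p up to 0.106, with a difference of -0.75 without VSEL 1). On the probe sets used, Psmd3, Psmd6, Psmd11 and Psmd14 of the lid were not called in any comparison. Their differences ran from -1.53 to -0.62 in HSC against ESC and from -1.32 to -0.72 in VSEL against ESC. Psmd11 has 8 probe sets. One with a mean of 9.40 gave 0.22 and 1.72 in these comparisons, and one with a mean of 9.04 gave -0.83 and -0.62, without calls. A dim one (mean 4.21) was called higher in VSEL than in HSC (0.75, adjusted p = 0.0148 in a fit over all probe sets) and ESC (0.49, adjusted p = 0.0467).

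The 3 chaperones of base assembly, which leave before the proteasome is complete, were not called in any comparison and varied widely within groups. Psmd5 was measured at 10.21 and 7.55 in VSEL, 9.45, 7.19 and 7.42 in HSC and 9.71, 10.09 and 10.31 in ESC. VSEL 1 and HSC 1 stood near ESC while the other marrow libraries lay far below. Psmd9 lay at 7.17 and 10.18 in VSEL, 8.32, 8.14 and 8.24 in HSC and 9.35, 7.72 and 8.37 in ESC, so the VSEL libraries enclosed all others. Psmd10 values were 5.24 and 6.98 in VSEL, 6.63, 5.49 and 8.08 in HSC and 7.47, 8.14 and 7.15 in ESC. VSEL lay below ESC here, and HSC overlapped both. The 95% intervals of the chaperones' differences were 3.67 to 4.60 log2 units wide, and 9 of 9 included 0.

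Of the tissue-specific subunits, Psmb11 lay near the array background (4.49 to 4.80) in all libraries and Psma8 was dim outside ESC 1 and ESC 3. Psma8, an alpha subunit of the testis, was measured at 5.50 and 4.99 in VSEL, 3.99, 4.58 and 4.29 in HSC and 7.49, 5.25 and 7.66 in ESC. ESC 1 and ESC 3 stood above all others, ESC 2 lay within the range of VSEL, and 2 of 9 arrays lay below background. Its difference of -2.51 in HSC against ESC was called (SE 0.65, adjusted p = 0.0455), but the call was lost in 7 of the 8 fits that left out 1 library, all except that without ESC 2 (adjusted p up to 0.138). Psmb11, the subunit of thymic epithelium, lay at 4.95 and 5.30 in VSEL, 4.52, 5.11 and 5.02 in HSC and 4.74, 4.81 and 4.47 in ESC, all close to background, and was not called. Psmc3ip was measured at 6.5 and 7.15 in VSEL, 6.03, 5.64 and 7.64 in HSC and 9.62, 8.92 and 8.26 in ESC. Both marrow groups lay below ESC. HSC minus ESC was -2.49 (SE 0.60, 5.63-fold, adjusted p = 0.036), lost without HSC 1, HSC 2 or any 1 ESC library (adjusted p up to 0.115), and VSEL minus ESC was -2.10 (adjusted p = 0.0805).

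Taking the constitutive subunits library by library, all 5 marrow libraries lay below ESC by about the same amount. The median offset of the 31 genes from the ESC mean was -1.31 in VSEL 1, -1.09 in VSEL 2+3, and -1.15, -0.97 and -1.07 in HSC 1, HSC 2 and HSC 3. The same median over genes above the median mean was -0.61 for VSEL 1 and -0.62 for VSEL 2+3 but -0.08 to -0.12 for HSC, so the subunits stood further from other bright genes in HSC than in VSEL. Of the 31 genes, 27 and 26 lay below the lowest ESC value in VSEL 1 and VSEL 2+3, and 30, 30 and 28 in the HSC libraries. The share of all genes was not counted for single libraries. By group, all VSEL values lay below those of ESC for 23 of the 31 (74.2%), against 22.6% of all genes and 38.1% of bright ones. All HSC values did so for 26 (83.9%), against 21.5% and 29.4%. The order of the 3 means was ESC, HSC, VSEL from the top for 20 of the 37 genes, ESC, VSEL, HSC for 14, VSEL, ESC, HSC for Psmc6 and Psmd9, and VSEL, HSC, ESC for Psmb11. An F test over the 3 cell types called 16 of the 37, where 25.5% of all genes and 38% of bright ones were called.

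The subunit genes varied little within ESC and widely between the VSEL libraries. ESC libraries spread over more than 1 log2 unit for 4 of the 37 genes (10.8%, against 26.5% of all genes and 32.8% of bright ones), and HSC libraries for 8 (21.6%, against 30.3% and 43.3%). VSEL 1 and VSEL 2+3 lay more than 1 unit apart for 19 of the 37 (51.4%), where 23.5% of all genes and 42% of bright ones did. VSEL 1 was the higher of the pair for 7 of these and the lower for 12. The widest gaps, as VSEL 1 minus VSEL 2+3, were 3.32 for Psmd1, 3.09 for Psmc1 and 2.66 for Psmd5 in the one direction and -3.01 for Psmd9, -2.87 for Psmd11, -2.72 for Psma7 and -2.47 for Psmd14 in the other. Psmd1 was measured at 11.23 in VSEL 1 and 7.91 in VSEL 2+3, on either side of its ESC values of 10.73, 10.49 and 10.25. Psmd14, the deubiquitinating subunit, lay at 9.71 and 12.18, the second value within the ESC range of 11.92 to 12.49. For such genes a mean over VSEL matches neither library, and the fit, which assumes 1 spread for all groups, can give standard errors that are too small for VSEL. In HSC against ESC they can be too large. For Psma7 the standard error there was 0.65, with standard deviations of 0.31 in HSC and 0.16 in ESC.

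**Figure D4:**
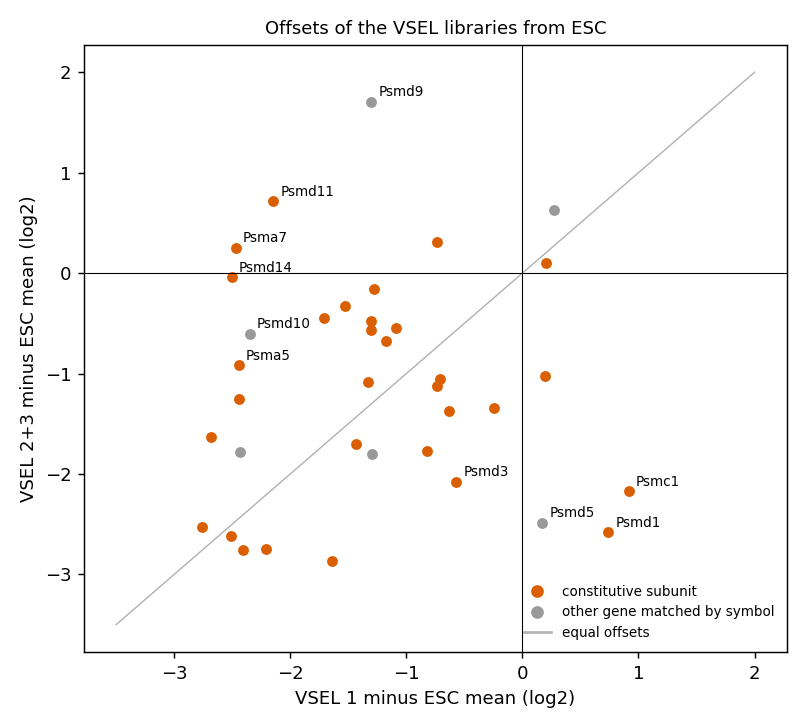
Log2 offset from the ESC mean in VSEL 1 (x axis) and VSEL 2+3 (y axis) for each gene, with constitutive subunits in orange, the other 6 genes in grey and a line of equal offsets. Most points lie in the lower left, below ESC in both libraries, but they are widely scattered about the line, with Psmd1 (3.32 apart) and Psmd9 (-3.01) at the extremes.

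Other genes of the pathway were read from a list of 42, of which 32 had a probe set of their own. Of the 32, 7 were called higher and 6 lower in HSC against ESC, 3 higher and 11 lower in VSEL against ESC, and 2 higher and 7 lower in VSEL against HSC. Over all genes, 6.99% and 9.93%, 6.38% and 10.5%, and 8.01% and 9.18% were called higher and lower in these comparisons. In HSC against ESC the inducible active subunits ran opposite to their constitutive counterparts. Psmb8, the counterpart of Psmb5, was measured at 12.02 and 12.23 in VSEL, 13.36, 12.98 and 13.12 in HSC and 6.04, 5.65 and 5.59 in ESC. Both marrow groups lay far above ESC, and HSC above VSEL. The difference was 7.40 in HSC against ESC (SE 0.18, 168-fold, adjusted p = 3.06e-06) and 6.37 in VSEL against ESC (SE 0.20, 82.5-fold, adjusted p = 0.000119). Psmb9, the counterpart of Psmb6, lay at 11.86 and 8.31 in VSEL, 12.35, 11.19 and 12.00 in HSC and 6.18, 7.03 and 6.83 in ESC, and was called in HSC against ESC (5.17, SE 0.89, adjusted p = 0.00985). VSEL also lay above ESC, without a call (3.40, adjusted p = 0.0631), and its libraries were far apart. Psmb10, the counterpart of Psmb7, was higher in HSC than in ESC by 2.13 (SE 0.26, 4.38-fold, adjusted p = 0.00253), with 12.58, 12.26 and 12.46 in HSC against 10.61, 10.15 and 10.14 in ESC, and VSEL at 11.47 and 10.61 reached into the ESC range. Psme1, a subunit of the PA28 activator, was higher in HSC than in ESC by 2.07 (adjusted p = 0.0259), a call lost without any 1 HSC or ESC library (adjusted p up to 0.0889). The pan-leukocyte markers given above were likewise high in HSC and low in ESC, and had medians of 5.12 in VSEL 1 and 9.66 in VSEL 2+3. Granulocyte markers were high in all marrow libraries, with medians of 13.22 and 14.67 in VSEL and 13.87 to 13.97 in HSC against 4.68 to 4.85 in ESC, and the medians of B lineage markers were 11.00 and 9.49 in VSEL, against 6.65 to 7.55 for HSC libraries. The part of these markers in the differences was not tested.

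Of the 6 measured genes listed as assembly factors, 3 were called lower than ESC in VSEL and 1 in HSC, where 10.5% and 9.93% of all genes were. Psmg1, a chaperone of alpha ring assembly, lay at 9.34 and 8.75 in VSEL, 9.32, 8.16 and 8.56 in HSC and 10.79, 11.42 and 11.74 in ESC. It was called in both, with a difference from ESC of -2.64 in HSC (SE 0.39, 6.21-fold, adjusted p = 0.00527) and of -2.27 in VSEL (SE 0.43, adjusted p = 0.0192). The VSEL call ended without VSEL 2+3, ESC 2 or ESC 3 (adjusted p up to 0.0664). Pomp, which brings the beta subunits into the core, was measured at 9.83 and 9.26 in VSEL, 11.22, 11.17 and 11.67 in HSC and 11.47, 11.72 and 11.15 in ESC. VSEL stood below both other groups, which overlapped, with differences of -1.90 against ESC (SE 0.28, adjusted p = 0.00806) and -1.81 against HSC (SE 0.28, adjusted p = 0.00926). Akirin2, which was on that list but acts in carrying proteasomes into the nucleus, differed by -2.06 in VSEL against ESC (SE 0.27, adjusted p = 0.00573). Psme4, the PA200 activator, was lower than ESC in VSEL (-2.54, SE 0.31, adjusted p = 0.00438) and in HSC (-1.54, SE 0.27, adjusted p = 0.0112). Sem1, the smallest lid subunit, whose symbol falls outside the rule, was called higher than ESC in both marrow groups, where none of the 37 genes was. It lay at 12.62 and 13.08 in VSEL, 12.15, 11.96 and 11.98 in HSC and 11.01, 11.09 and 10.97 in ESC, separate groups in the reverse order. The difference was 1.83 in VSEL against ESC (SE 0.18, 3.56-fold, adjusted p = 0.0022) and 1.0 in HSC against ESC (SE 0.16, 2.01-fold, adjusted p = 0.00695).

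Nfe2l1, the activator of subunit transcription, was measured at 8.62 and 7.91 in VSEL, 9.22, 9.59 and 9.0 in HSC and 10.34, 10.10 and 10.58 in ESC. Like Psmb6, Psmd12 and Psmd13, it was lowest in VSEL and highest in ESC without overlap. It was called in VSEL against ESC (-2.07, SE 0.29, 4.20-fold, adjusted p = 0.00726) and in HSC against ESC (-1.07, SE 0.26, adjusted p = 0.0369), where the call was lost without HSC 1, HSC 3 or any 1 ESC library (adjusted p up to 0.114). Ngly1, the enzyme that removes sugar chains from Nfe2l1 protein, had another pattern, with 4.58 and 4.06 in VSEL, 8.63, 9.23 and 9.88 in HSC and 5.48, 6.06 and 6.83 in ESC. HSC stood above both others, by 3.13 over ESC (SE 0.45, adjusted p = 0.00484), and both VSEL values lay below the lower quartiles of 4.72 and 4.78 of their libraries. VSEL was called lower than HSC (adjusted p = 0.00198), with HSC at least 22.6-fold higher when VSEL is set at those quartiles. Zfand2a, a proteasome partner induced by stress, behaved likewise, at 6.45 and 6.70 in VSEL, 11.43, 11.59 and 12.09 in HSC and 8.68, 9.08 and 7.73 in ESC, with -5.13 in VSEL against HSC (SE 0.42, adjusted p = 0.000806). Nfe2l2, a related factor, was not called in any comparison on the probe set used, where its VSEL libraries lay at 8.03 and 10.89. Its other probe set, with a mean of 5.91, lay at 4.81 and 3.91 in VSEL, 8.57, 7.96 and 9.17 in HSC and 4.24, 3.91 and 6.68 in ESC. In a fit over all probe sets it was called in VSEL against HSC (-4.20, adjusted p = 0.0297) and in HSC against ESC (3.62, adjusted p = 0.0336). Of the unfoldase that delivers substrates, Ufd1 was lower than ESC in VSEL (-2.72, SE 0.33, adjusted p = 0.0044) and in HSC (-1.60, SE 0.29, adjusted p = 0.0129), while Nploc4, its binding partner, was higher in VSEL than in HSC (2.10, SE 0.36, adjusted p = 0.0138) and lay at 10.43 and 11.20 in VSEL. The other probe set of Ufd1 gave 0.81 in HSC against ESC (SE 0.74, adjusted p = 0.627 in a fit over all probe sets), with 7.05, 6.82 and 6.56 in HSC and 7.36, 6.29 and 4.35 in ESC.

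**Figure D5:**
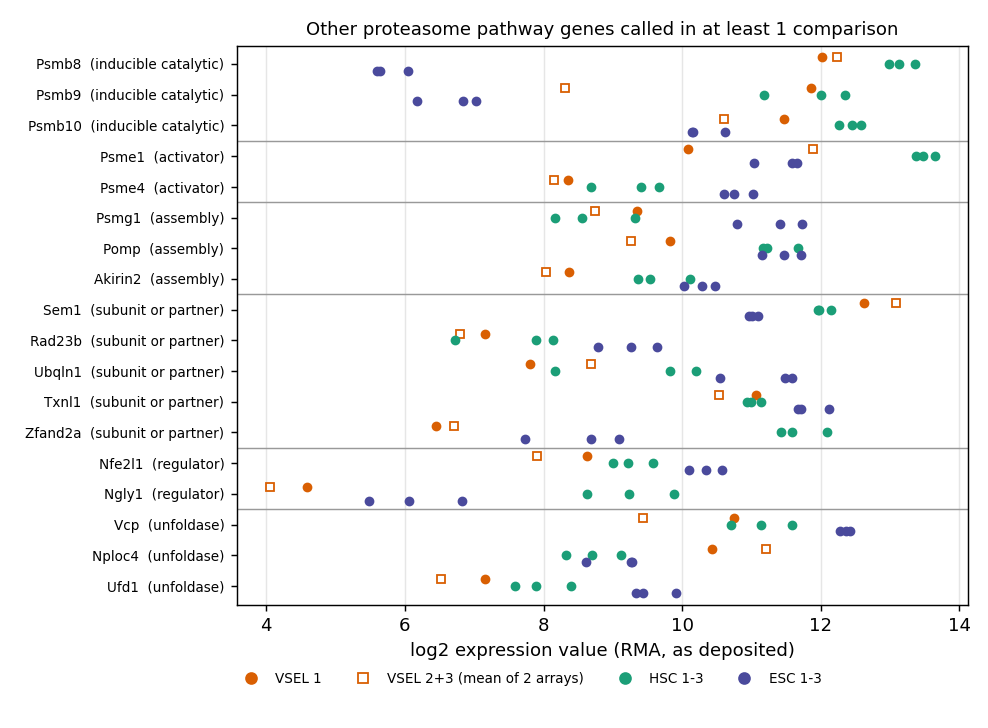
Log2 expression value (x axis) in each library for the 18 pathway genes outside the rule that were called in at least 1 comparison, with symbols as in the plot of the 37 genes by library. The inducible subunits Psmb8, Psmb9 and Psmb10 have their lowest values in ESC, while Psmg1, Nfe2l1 and Ufd1 have their highest there.

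Set beside the promoter windows shown above, the 4 printed genes did not share a pattern. Psmb6 and Psmd12 stepped down from ESC through HSC to VSEL, Psmb5 was lowest in HSC, and VSEL values of Psmc6 lay within the ESC range on the probe set used, though not on its others. Psmd9, the further gene with TGACNNNGC, was not called.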

How the data were processed

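Log2 expression values per probe set of an Affymetrix mouse array were used as deposited. The submitters' processing notes name RMA and the program Partek 6.5 for the authors' processing, with settings and array set not given in the sources used here. RMA corrects background, usually aligns arrays by quantiles, which removes a change shared by most genes, and summarises probes. The deposited VSEL arrays kept lower upper quartiles than the others, so a shift shared by bright genes remained in them.

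Of 45101 probe sets, 64 controls were left out. Gene symbols came from the platform annotation for 34945 probe sets with 1 gene, and 34741 were updated through RefSeq (GRCm38.p6). Each gene took its probe set with the highest mean. The tests used limma 3.58.1 under R 4.3.3, two-sided, with lmFit and eBayes in a joint fit of 3 groups and 8 libraries, with 5 residual degrees of freedom and a prior of 1.37, and Benjamini-Hochberg adjustment ran over the 18193 genes of each contrast, with calls at 0.05. Bright genes are those whose mean lay above the median of all genes (6.35), as 35 of the 37 did. Precision is limited by the number of arrays. The script was tested on simulated data.

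The members and lists were chosen with earlier results of these data known. Values per library are given for the called genes with the largest difference in each structural class (up to 4), all members that are no constitutive subunit and those with opposite probe sets; other genes were named after their values were seen. The alternatives covered the normalization, filters, probe sets, array weights and each library left out.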

Additional observations from a re-analysis of the deposited data

How the results depend on the processing

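Over 21 alternatives to the fit as reported, 4 of 10 calls in VSEL against ESC were kept in all (Psma4, Psmb6, Psmd12 and Psmd8), as were 6 of 16 in HSC against ESC (Psmb5, Psmb6, Psmc4, Psmc5, Psmd12 and Psmd7) and 0 of 8 in VSEL against HSC. Leaving out 1 library at a time gave 7 to 23 genes called lower and medians of -1.20 to -1.02 in HSC against ESC, 6 to 14 lower, or 15 without VSEL 2+3, and medians of -1.31 to -1.03 in VSEL against ESC, and 0 to 4 higher, 3 to 7 lower and medians of -0.28 to 0.049 in VSEL against HSC. In VSEL against HSC the number called higher, the number called lower and the median were 4, 7 and 0.040 with the 9 arrays kept separate. Centring on genes above the median mean gave 11, 0 and 0.74 there, array weights gave 0 and 3, the fit on the 2 groups alone 0 and 1, and the mean of all probe sets 1 called higher. In that comparison cyclic loess gave 2 called lower and a median of 0.22, centring on ribosomal protein genes a median of 0.091, and probe sets not marked as able to match several transcripts one of 0.24 over 32 members. In VSEL against ESC, 18 genes were called lower with the 9 arrays separate and 5 under cyclic loess, whose median was -0.41, and the median was -0.87 with centring on ribosomal protein genes. Centring on genes above the median mean gave 2 called higher and a median of -0.19. In HSC against ESC the median was -0.99 after another quantile normalization, -0.82 under cyclic loess and -0.83 with the mean of all probe sets. Centring on bright genes shifts the median of all genes by 0.90 and 0.88 in the comparisons of VSEL with HSC and ESC, centring on ribosomal protein genes by 0.25 and 0.21, and cyclic loess by -0.16 and -0.11. Relative to the median of all genes, the members' median in VSEL against ESC was -1.19 as deposited, -1.07 after another quantile normalization and -0.41 under cyclic loess, and in HSC against ESC it was -1.09, -0.96 and -0.83. Both centrings move all genes of an array by the same amount, so they leave this relative value unchanged by construction and are no check of it.

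With the replicate number as a block over the 9 arrays, the median in VSEL against HSC was 0.040, and 13 genes were called lower in VSEL against ESC, 12 in HSC against ESC and 6 in VSEL against HSC. The deviations of libraries with the same number correlated at -0.09 to 0.15 and those with different numbers at -0.15 to 0.12, so the numbers were not taken to pair the libraries.

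Centring on genes above the median mean gave 0.74 for Psmc4, 0.65 for Ube3c and 0.69 for Txnl1 in VSEL against HSC, each now higher. The mean of all probe sets gave 0.076 for Vcp in VSEL against ESC and 0.36 for Psma1 in HSC against ESC. On probe sets not marked as able to match several transcripts, VSEL minus HSC was 0.62 for Psmd13 and -0.95 for Usp14, and VSEL minus ESC was -1.39 for Psmc6, 0.24 for Psmd13, -3.16 for Usp14 and 0.39 for Ubqln1. On these probe sets HSC minus ESC was 0.55 for Psma5, 0.25 for Rad23b and 0.81 for Ufd1. The probe sets behind the turns of Psma5 and Psmc6 had means of 4.37 and 4.09, and the further one of Vcp 3.60, below the array background of 4.49 to 4.80. The cause of these turns was not tested.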
